A study of Arabidopsis thaliana with 24 samples.

Results

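Arabidopsis thaliana Col-0 wild-type rosettes given salt were compared with untreated rosettes at 22 °C, across all genes. The comparison used 6 of the 24 RNA-seq libraries of the series, 3 from plants watered with 150 mM NaCl (Salt) and 3 from non-stressed plants (Control), and 20027 of the 27655 genes in the deposited table passed the filter on low counts. Plants of every group grew in long days (16 h light) at 22 °C by day and 18 °C by night, were moved to single pots at 2 weeks and were treated 14 days later. Rosettes of the treated groups were cut at midday, 16 h after watering. The other groups used were Mannitol (200 mM), Salt_Mannitol (both solutes) and the heated groups Heat (no solute) and Salt_Heat (150 mM NaCl), which spent their last 4 h at 35 °C. No watering is recorded for Control, so salt and watering cannot be told apart in Salt against Control, nor in Salt_Heat against Heat, whereas Salt, Mannitol and Salt_Mannitol plants were all watered. The libraries are called biological replicates, but whether each held 1 plant or a pool is not stated, and the p-values therefore reflect differences among the sampled libraries alone, which may be technical.

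NaCl around the roots first lowers water uptake and later brings sodium and chloride into the leaf. Plants answer the loss of water through abscisic acid (ABA): the hormone binds PYR/PYL receptors, these inhibit clade A PP2C phosphatases, and the freed SnRK2 kinases activate ABF transcription factors at promoters holding the ABA-responsive element. Known targets are late embryogenesis abundant (LEA) proteins, among them the dehydrins, which protect proteins and membranes when cells dry, and stomata close, which lowers carbon fixation.

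The mesophyll marker RBCS1A, the small subunit of Rubisco, was among the most abundant transcripts at 13891 to 25717 TPM over the 6 libraries. None of the 5 flower markers passed the filter. Of 9 root markers 2 did, and the most abundant, PYK10, stood at 179.6, 128 and 147 TPM in Control and 96.0, 122 and 90.0 TPM in Salt. The 6 libraries held 14213808 to 17923356 reads on 22028 to 22267 genes. Control 1 was highest in some defence transcripts. An example picked after its values were seen is the defensin PDF1.2, at 1891 TPM against 573 and 203 TPM in Control 2 and 3. Over all genes the log2 correlation was 0.9907 for Control 1 and 2, 0.9871 for Control 1 and 3 and 0.9901 for Control 2 and 3. Salt 1 had the largest share of reads on organelle genomes, 0.101%. Scaling by library totals alone, in place of trimmed means (TMM), moved the median log2 fold change of all genes from 0.00 to 0.11, so directions are given relative to TMM scaling. A call means an adjusted p under 0.05 in edgeR's quasi-likelihood test over all genes tested, and rose and fell are written of called genes. Values after ± are approximate standard errors of a log2 fold change, its size divided by the square root of F in that test. Where that is said, they are the SD of 3 libraries. Each gene said to differ, in this or another comparison, kept its call when any 1 library of that comparison was left out, unless a value without it is given.

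Salt rosettes differed from Control at 2191 genes, 10.9% of those tested: 909 rose (4.54%) and 1282 fell (6.4%). Counts of a class or list against Control are to be read beside these shares, and some lie near them. Most differences were small, since 283 genes (1.41%) changed at least 2-fold, 149 of them upward (0.744%) and 134 downward (0.669%). The share of genes that fell stood above the background in photosynthesis, pigment synthesis and secondary metabolism, and dehydration protection and lipid transfer genes were among the largest rises. In the MAPMAN photosynthesis class (PS) 70 of 159 genes fell (44.03%) and 3 rose, with a median log2 fold change of -0.26. In tetrapyrrole synthesis, the route to chlorophyll and haem, 12 of 44 fell (27.3%), and in secondary metabolism 58 of 336 (17.3%). Major carbohydrate metabolism had 12 of 91 genes higher (13.2%) and 8 lower. Signalling genes, receptor kinases and calcium-binding proteins among them, had 66 higher and 39 lower of 1048. Cell organisation genes had 35 higher and 18 lower of 712, with the rises near the share over all genes. Mitochondrial electron transport stood below the background, with 1 of 106 genes higher and 3 lower. Leaving out 1 library gave 1956, 1399 and 1042 calls without Control 1, 2 and 3 and 1414, 1300 and 1280 without Salt 1, 2 and 3, and 1382 without Control 1 and Salt 1 together. The photosynthesis falls then numbered 46, 24, 38 and 42 without Control 2, Control 3, Salt 1 and Salt 3, the tetrapyrrole falls 2, 6 and 7 without Control 3, Salt 1 and Salt 2 and the secondary metabolism falls 36, 37, 38 and 34 without Control 2, Control 3, Salt 2 and Salt 3. The carbohydrate rises numbered 7 without Salt 1, the signalling rises 35, 34, 32 and 29 without Control 2, Control 3, Salt 2 and Salt 3, its falls 23, 13, 20, 18 and 22 without Control 2, Control 3, Salt 1, Salt 2 and Salt 3, and the falls among cell organisation genes 10 and 10 without Control 3 and Salt 3.

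**Figure D1:**
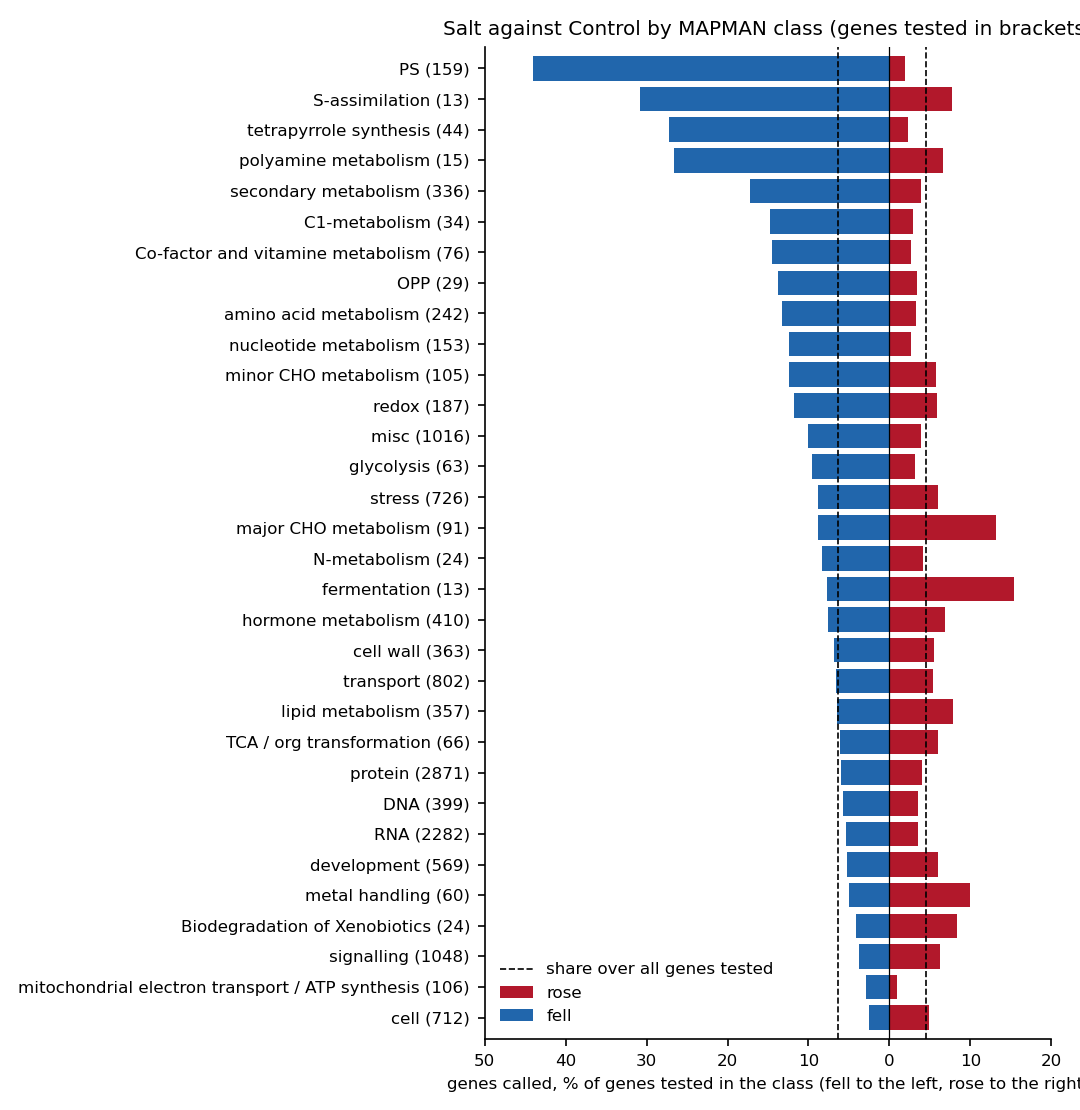
Share of tested genes called in each MAPMAN class, in percent, with genes that fell with salt drawn to the left and genes that rose to the right; the class size stands in brackets and the dashed lines mark the shares over all genes, 6.4% and 4.54%. Photosynthesis (PS) reaches furthest to the left, with 44.03% of its 159 genes lower.

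Promoters of 6 genes are shown. They were picked after their letters were seen, 4 with the ABA-responsive element and 2 without it, among the genes with the largest folds, of which 8 of the 15 largest rises and 3 of the 15 largest falls hold a match. The largest rises and falls were taken among called genes with a mean of at least 5 TPM in Salt or Control and no overlap between the groups. TSPO, DAA1 and HSFA6A, whose rises were larger than that of LEA4-5, hold no ABA-responsive element core. Each line gives the 250 bases before the annotated gene start, 5′ to 3′ on the gene's strand, from the RefSeq assembly TAIR10.1. Capitals mark matches on either strand to the ABA-responsive element core ACGTG, to the G-box CACGTG, which contains that core, and to the dehydration-responsive element core ACCGAC or GCCGAC; overlapping matches were counted as 1 site. LEA7 (chr1:19619474-19619723, plus strand) and LEA4-5 (chr5:2090431-2090680, minus strand) encode LEA proteins, AT3G02480 (chr3:511970-512219, plus strand) a LEA family protein and LTI65 (chr5:21236771-21237020, plus strand) the ABA-induced protein also called RD29B. LTP4 (chr5:23925958-23926207, minus strand) encodes a lipid transfer protein and THI2.2 (chr5:14562864-14563113, minus strand) a thionin, a small antimicrobial peptide, and neither window holds a match to these letters.
LEA7: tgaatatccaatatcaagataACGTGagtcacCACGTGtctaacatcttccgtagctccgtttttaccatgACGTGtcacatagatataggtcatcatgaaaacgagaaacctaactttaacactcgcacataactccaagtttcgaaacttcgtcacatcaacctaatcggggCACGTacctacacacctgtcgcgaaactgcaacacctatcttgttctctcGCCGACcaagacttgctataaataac
AT3G02480: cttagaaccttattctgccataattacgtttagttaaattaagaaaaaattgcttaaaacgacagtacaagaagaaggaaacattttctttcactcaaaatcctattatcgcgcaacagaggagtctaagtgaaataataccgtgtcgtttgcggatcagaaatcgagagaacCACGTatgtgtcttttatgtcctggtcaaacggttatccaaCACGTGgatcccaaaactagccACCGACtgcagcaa
LTI65: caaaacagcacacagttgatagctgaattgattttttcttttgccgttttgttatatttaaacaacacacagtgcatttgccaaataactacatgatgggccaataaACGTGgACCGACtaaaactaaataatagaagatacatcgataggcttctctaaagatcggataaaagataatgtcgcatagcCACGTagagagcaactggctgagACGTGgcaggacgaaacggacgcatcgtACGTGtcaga
LEA4-5: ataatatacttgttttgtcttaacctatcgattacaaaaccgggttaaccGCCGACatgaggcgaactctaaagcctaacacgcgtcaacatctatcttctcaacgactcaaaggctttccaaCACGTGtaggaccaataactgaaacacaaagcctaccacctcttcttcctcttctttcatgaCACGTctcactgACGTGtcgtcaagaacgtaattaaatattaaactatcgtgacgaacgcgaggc
LTP4: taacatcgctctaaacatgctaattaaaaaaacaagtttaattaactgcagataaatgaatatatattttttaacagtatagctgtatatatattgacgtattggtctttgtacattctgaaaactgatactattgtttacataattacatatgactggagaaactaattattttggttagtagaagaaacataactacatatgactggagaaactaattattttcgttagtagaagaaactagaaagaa
THI2.2: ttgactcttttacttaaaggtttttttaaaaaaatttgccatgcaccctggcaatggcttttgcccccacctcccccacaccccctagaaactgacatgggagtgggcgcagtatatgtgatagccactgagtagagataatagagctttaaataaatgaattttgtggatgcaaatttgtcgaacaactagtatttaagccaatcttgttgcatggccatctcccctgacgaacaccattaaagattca

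LEA7 has 4 ABA-responsive element cores and LTI65 also 4, LEA4-5 has 3 and AT3G02480 has 2, and each of these promoters holds 1 dehydration-responsive element core. Among all genes tested, 23.5% of 19884 promoters held at least 1 ABA-responsive element core and 5.5% held 2 or more. Among genes that rose at least 2-fold the shares were 39.6% and 19.5%, and among genes that fell at least 2-fold 40.3% and 7.46%. Among all genes that rose the shares were 26.6% and 7.92%, and among all that fell 28.5% and 5.54%, closer to those of all genes tested. The dehydration-responsive element core was in 16.8% of the promoters of the genes that rose at least 2-fold, in 5.22% of those that fell at least 2-fold and in 7.88% of all tested; over all genes that rose it was in 10.5% and over all that fell in 7.03%. For the 2-fold rises, the 2-fold falls and all genes tested, in that order, the heat shock element GAANNTTC was in 9.4%, 8.21% and 9.52%, and the W-box TTGACC or TTGACT, the WRKY-binding sequence, in 26.2%, 32.1% and 28.3%. Of the 19 promoters of listed LEA and dehydrin genes, 14 held a core and 8 held 2 or more. These shares are descriptions of sequence and say nothing of binding.

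Dehydration protection genes were among the largest rises. Of 17 LEA and dehydrin genes tested 10 rose and 1 fell, with a median log2 fold change of 1.4 against 0.00 over all genes. The rises numbered 5 and 6 without Control 3 and Salt 1. RAB18, an ABA-induced dehydrin, stood at 33.6, 36.6 and 29.0 TPM in Control 1, 2 and 3 and 695, 203 and 369.9 TPM in Salt 1, 2 and 3. Every Salt library exceeded every Control library, which the choice of the largest rises required, and Salt 1 held the most. The log2 fold change was 3.66 ± 0.61 (adjusted p = 0.00136). KIN1, a small cold- and ABA-induced protein, was at 379, 457 and 269.5 TPM in the Control libraries and 3168, 1779 and 2768 TPM in the Salt libraries, again highest in Salt 1 and with no overlap (2.74 ± 0.43, adjusted p = 0.000931). Reads of KIN1 and its near-identical neighbour KIN2 may be shared, and KIN2 rose by 0.47 ± 0.14, a call lost without any of 4 libraries (adjusted p = 0.128, 0.134, 0.141 and 0.0872 without Control 1, Control 3, Salt 1 and Salt 3).

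The dehydrin LTI30 was at 17.9, 20.2 and 16.8 TPM in the Control libraries and 102, 60.7 and 84.3 TPM in the Salt libraries, all Salt libraries above all Control libraries (2.16 ± 0.48, adjusted p = 0.00894). LEA7 and LTI65 were close to absent from Control: LEA7 had 7 reads over the 3 Control libraries and 613 over the 3 Salt libraries, and LTI65 59 and 1657. LEA7 was at 0.308, 0.302 and 0.115 TPM in the Control libraries and 29.3, 18.0 and 22.3 TPM in the Salt libraries and its call was lost without Control 3 (adjusted p = 0.0542 without Control 3). LTI65 was at 0.286, 0.78 and 0.159 TPM in the Control libraries and 21, 8.03 and 8.86 TPM in the Salt libraries, and its log2 fold change of 4.91 ± 0.91 became 5.78 without Control 2. COR15B, a chloroplast cold-regulated protein, went the other way at 277, 413 and 396 TPM in the Control libraries and 215, 206 and 206 TPM in the Salt libraries (-0.81 ± 0.11, adjusted p = 0.000167), whereas its neighbour COR15A had 0.82 ± 0.29 and was not called (adjusted p = 0.0787).

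**Figure D2:**
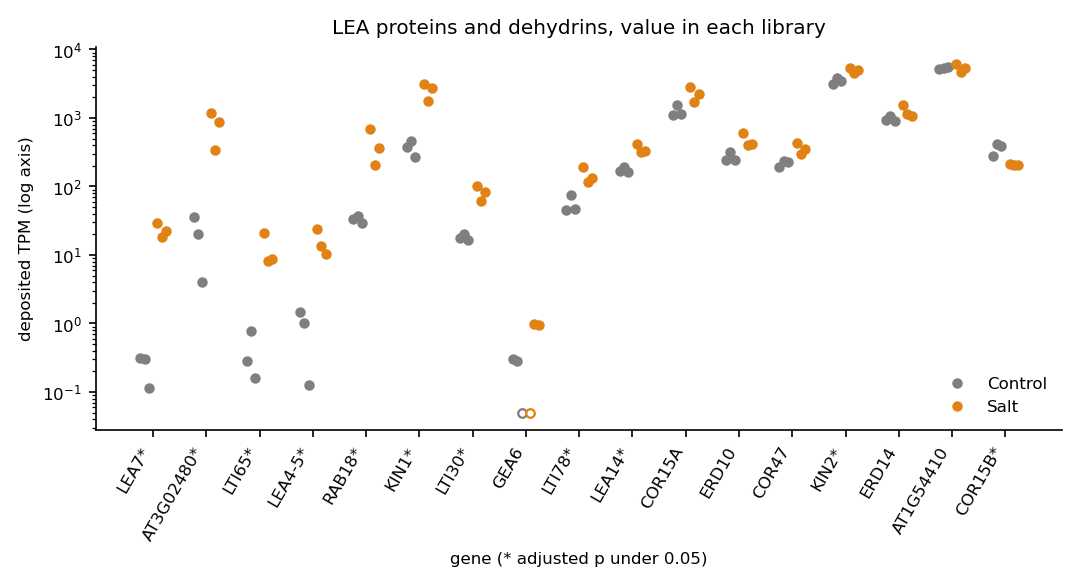
Deposited TPM of the 17 tested LEA and dehydrin genes in each library on a log axis; grey points are the 3 Control and orange points the 3 Salt libraries, open points at the bottom are values of 0, and an asterisk marks an adjusted p under 0.05. The Salt points of RAB18, KIN1 and LTI30 lie above all Control points, and those of COR15B lie below.

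The lipid transfer protein genes LTP3 and LTP4 were among the largest rises; proteins of this family carry lipids to the cuticle and outer wall. LTP3 was at 108, 74.1 and 35.6 TPM in the Control libraries and 1432, 893 and 1361 TPM in the Salt libraries (4.06 ± 0.48, adjusted p = 0.000125) and LTP4 at 11.4, 7.42 and 3.41 TPM in the Control libraries and 453, 247 and 557 TPM in the Salt libraries (5.77 ± 0.87, adjusted p = 0.000706). In both genes Control 3 was the lowest library, and groups without overlap were required for the choice of the largest rises. The 2 genes are tandem copies whose reads may be shared. Of the MAPMAN class of protease inhibitor, seed storage and lipid transfer proteins, 5 of 48 rose and 5 fell, against 4.54% and 6.4% of all genes. AT2G37870, a member of the same family, rose by 3.01 ± 0.52 (adjusted p = 0.0018). Wax synthesis had 3 of 16 listed genes higher, or 1 without Control 3. CER1, which makes wax alkanes, was at 16.0, 19.2 and 17.9 TPM in the Control libraries and 32.8, 33.8 and 31.5 TPM in the Salt libraries, with no overlap (0.88 ± 0.13, adjusted p = 0.00034). The wax ester synthase WSD1 had 2.13 ± 0.62, a call lost without any of 3 libraries (adjusted p = 0.0895, 0.13 and 0.151 without Control 1, Control 3 and Salt 1).

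Genes of the core ABA pathway were called in part. PP2CA, a clade A PP2C that represses the SnRK2 kinases and is itself induced by ABA, was at 47.8, 52.8 and 39.97 TPM in the Control libraries and 105, 76.0 and 81.8 TPM in the Salt libraries (0.89 ± 0.19, adjusted p = 0.00479), and every Salt value lay above every Control value. Of the family 3 of 7 clade A genes rose (42.9%, against 4.54% of all genes), or 1 and 1 without Control 3 and Salt 1. The kinase genes SNRK2.3 rose by 0.34 ± 0.07 (adjusted p = 0.0055) and SNRK2-8 fell by 0.60 ± 0.14 (adjusted p = 0.00811), and the other 8 of 10 were not called, so 10% rose and 10% fell against 4.54% and 6.4% of all genes. Of the ABF factors, ABF2 had 0.32 ± 0.16 (adjusted p = 0.219), ABF3 0.21 ± 0.21 (adjusted p = 0.594) and ABF4 0.24 ± 0.12 (adjusted p = 0.211). NCED3, the enzyme that limits ABA synthesis, had 0.76 ± 0.30 (adjusted p = 0.115), and the PP2C HAI1 had 1.67 ± 0.57 (adjusted p = 0.0719). Among 17 stress NAC and HD-ZIP factors RD26 had 0.85 ± 0.32 (adjusted p = 0.107) and HB-7 1.13 ± 0.36 (adjusted p = 0.0513). DREB2A, a factor that binds the dehydration-responsive element, had 0.91 ± 0.38 (adjusted p = 0.139). None of the ABF factors, NCED3, HAI1, RD26, HB-7 and DREB2A passed the test.

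Genes of compatible solutes and sugars changed in both directions. A proline synthesis and a proline breakdown enzyme rose slightly: P5CR, the last step of synthesis, from 27.2 ± 2.87 to 36.8 ± 1.82 TPM (SD, n = 3; 0.43 ± 0.09, adjusted p = 0.00538), and ALDH12A1, which oxidises the breakdown product, by 0.35 ± 0.07. P5CS1, the first step of synthesis, had 0.62 ± 0.19, lost in 5 of the 6 fits without 1 library (adjusted p = 0.135, 0.056, 0.117, 0.246 and 0.057 without Control 1, Control 2, Control 3, Salt 1 and Salt 2). The proline transporter ProT3 was at 1.43, 2.55 and 2.36 TPM in the Control libraries and 0.809, 0.871 and 0.634 TPM in the Salt libraries (-1.46 ± 0.25, adjusted p = 0.000933), lower in each Salt library. Galactinol synthases, the entry to raffinose, divided: GolS2 was at 26.4, 46.4 and 34.1 TPM in the Control libraries and 106, 62.9 and 59.3 TPM in the Salt libraries (1.08 ± 0.24, adjusted p = 0.00659), while GolS1 fell by 0.57 ± 0.12 and GolS3 by 0.86 ± 0.17 (adjusted p = 0.00248). GolS1 and GolS3 groups did not overlap either.

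Starch and sucrose genes also divided. APL4, a large subunit of the ADP-glucose pyrophosphorylase that commits carbon to starch, was at 6.29, 6.63 and 5.73 TPM in the Control libraries and 20.8, 11.5 and 12.0 TPM in the Salt libraries (1.24 ± 0.26, adjusted p = 0.00523), while APL1, the main leaf subunit, fell from 213 ± 23.8 to 155 ± 4.8 TPM (SD, n = 3; -0.47 ± 0.09, adjusted p = 0.00233). PGM, the plastid phosphoglucomutase, fell by 0.51 ± 0.11 (adjusted p = 0.00444). Sucrose synthase SUS1 was at 14.4, 15.3 and 11.2 TPM in the Control libraries and 24.3, 22.5 and 25.7 TPM in the Salt libraries, above Control in each library (0.82 ± 0.14, adjusted p = 0.000933). The sucrose exporter SWEET11 fell by 0.51 ± 0.11 (adjusted p = 0.00342). In nitrogen assimilation NIA1, a nitrate reductase, fell by 0.65 ± 0.13 (adjusted p = 0.00314) and the asparagine synthetase ASN2 by 0.53 ± 0.10 (adjusted p = 0.0025). Over the lists, 2 of 15 starch synthesis genes rose and 4 fell, and 1 of 19 nitrogen genes rose and 3 fell. Over all genes 4.54% rose and 6.4% fell. For starch synthesis 1 rose without Salt 1 and 2 fell without Control 2, Control 3, Salt 2 or Salt 3. No nitrogen gene rose without Control 3.

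Carbon fixation genes fell together. Of 20 listed Calvin cycle genes 16 fell and none rose, with a median of -0.45. The falls numbered 6, 9 and 10 without Control 3, Salt 1 and Salt 3. RBCS1A was at 22596, 24268 and 25717 TPM in the Control libraries and 13891, 14937 and 13942 TPM in the Salt libraries, and every Salt value was below every Control value (-0.78 ± 0.12, adjusted p = 0.00031). Reads of RBCS1A and the other small-subunit genes may be shared. The aldolase FBA2 was at 1405, 1503 and 1728 TPM in the Control libraries and 968, 982 and 947 TPM in the Salt libraries (-0.69 ± 0.10, adjusted p = 0.000137), FBA1 fell by 0.67 ± 0.11 and the phosphoglycerate kinase PGK1 by 0.55 ± 0.10 (adjusted p = 0.00159). Summed over the Calvin cycle genes, the level was 64.1%, 69.8% and 66.6% of the Control mean in Salt 1, 2 and 3 and 93.7%, 98.7% and 108% in Control 1, 2 and 3. In the MAPMAN photorespiration class 6 of 22 genes fell and none rose. In whole rosettes, fewer cells of a type and less RNA per cell cannot be told apart.

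Light reaction genes had smaller folds. Of 20 light-harvesting genes 7 fell and none rose (median -0.25). The falls numbered 4, 1, 2, 4 and 4 without Control 2, Control 3, Salt 1, Salt 2 and Salt 3. LHCA1, an antenna protein of photosystem I, was at 8619, 9549 and 10294 TPM in the Control libraries and 7002, 6968 and 6993 TPM in the Salt libraries, below Control in each library (-0.45 ± 0.09, adjusted p = 0.00173). Summed light-harvesting transcripts were at 83.8%, 89.0% and 87.5% of the Control mean in the Salt libraries against 92.9%, 100.2% and 107% in the Control libraries. They were not rescaled to equal TPM totals, which were higher in each Control library, so no separation of the groups is read from them. In the photosystem II class 18 of 46 genes fell and 1 rose, and in photosystem I 9 of 21 fell. PSB28, a photosystem II assembly factor, was at 171, 175 and 190.2 TPM in the Control libraries and 103, 109 and 101 TPM in the Salt libraries (-0.79 ± 0.16, adjusted p = 0.00342). The gene that rose was PSBP-2, a copy of the oxygen-evolving complex subunit PsbP, at 24.1, 29.7 and 27.3 TPM in the Control libraries and 47.1, 45.1 and 42.2 TPM in the Salt libraries (0.71 ± 0.13, adjusted p = 0.00138).

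In pigment synthesis GSA2, which makes the tetrapyrrole precursor aminolevulinate, fell by 0.64 ± 0.14 (adjusted p = 0.00494). HO3, a haem oxygenase, was the 1 tetrapyrrole gene that rose, at 2.88, 2.31 and 1.91 TPM in the Control libraries and 5.04, 5.28 and 5.8 TPM in the Salt libraries (1.17 ± 0.20, adjusted p = 0.000663). Of 16 carotenoid genes 7 fell and none rose, or 4 without Control 3, with LUT2, the lycopene cyclase of the lutein route, at 32.0 to 32.5 TPM in Salt against 40.7 to 50.2 TPM in Control (-0.52 ± 0.10, adjusted p = 0.00169).

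Genes for plastid ribosomal proteins also fell. Of 50 genes in the MAPMAN chloroplast ribosome class 34 fell (68.0%) and none rose, with a median of -0.50. The falls numbered 19 without Control 3. The 34 that fell had Control means of 215 to 833 TPM and log2 fold changes of -0.76 to -0.42. Over all 50 genes the groups did not overlap in TPM in 38, against 32.3% of all genes tested, counted in either direction. TPM totals were higher in each Control library and were not equalised, so no separation of the groups is read from this count. AT1G29070, large-subunit protein L34, was at 400.3, 411 and 493 TPM in the Control libraries and 233, 265 and 280.0 TPM in the Salt libraries (-0.76 ± 0.14, adjusted p = 0.00132). Control 3 was its highest library and Salt 1 its lowest. Summed plastid ribosomal transcripts were at 65.1%, 72.7% and 70.9% of the Control mean in Salt and 92.0%, 93.8% and 114% in Control. The summed levels of cytosolic 60S proteins, also at unequal TPM totals, were 79.8%, 90.0% and 85.5% in Salt and 108%, 93.1% and 99.2% in Control. Of those genes 10 of 151 fell and none rose, and of cytosolic 40S genes 3 of 92 fell and 1 rose. With library totals alone the cytosolic balance turned, to 7 higher and 4 lower of 243, while 33 plastid genes still fell and 3 rose.

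**Figure D3:**
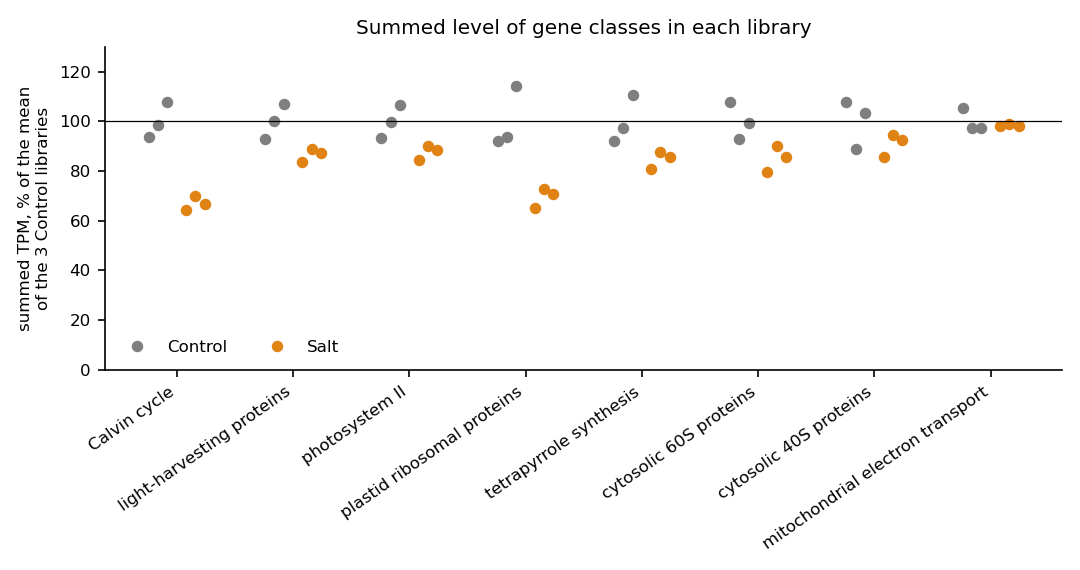
Summed TPM of 8 gene classes in each library, in percent of the mean of the 3 Control libraries; grey points are Control and orange points Salt. Salt libraries lie lowest in the Calvin cycle, at 64.1% to 69.8%, and in plastid ribosomal proteins, at 65.1% to 72.7%, and near 100% in mitochondrial electron transport, whose groups overlap. TPM totals over all genes were higher in each Control library than in each Salt library and were not equalised.

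Genes of jasmonate synthesis and of its repressors fell. Of 13 jasmonate synthesis genes 7 fell and none rose, and of 12 JAZ genes, the repressors whose transcripts mark active jasmonate signalling, 6 fell and none rose; no library left out moved either count by over 1.5 times. LOX2, the chloroplast lipoxygenase at the entry to jasmonate, was at 703, 1045 and 670.2 TPM in the Control libraries and 409, 351 and 335 TPM in the Salt libraries, with Control 2 highest and no overlap (-1.15 ± 0.20, adjusted p = 0.00125). AOC2, an allene oxide cyclase whose reads may be shared with AOC1, was at 307, 377 and 311 TPM in the Control libraries and 218, 171 and 152 TPM in the Salt libraries (-0.89 ± 0.13, adjusted p = 0.000281), AOS fell by 0.71 ± 0.14 and OPR3 by 0.46 ± 0.10. TIFY7 (JAZ9) fell by 1.25 ± 0.14 (adjusted p = 1.84e-05), JAZ5 by 1.11 ± 0.23 and JAZ6 by 0.70 ± 0.12. VSP1, a jasmonate-induced storage protein that was highest in Control 1, was at 129, 61.4 and 27.2 TPM in Control and 20.3, 74.8 and 16.6 TPM in Salt and was not called (adjusted p = 0.279). Without Control 1, 7 synthesis genes and 5 JAZ genes fell.

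Some glucosinolate genes, which make the sulfur-containing defence compounds of the cabbage family, fell as well. In the MAPMAN class 16 of 52 fell (30.8%) and none rose, or 8 and 6 without Control 2 and Salt 3. In the indole branch 7 of 11 listed genes fell (4 and 4 without Control 1 and Salt 3), and in the aliphatic branch with shared core steps 11 of 23 (4, 7, 5 and 4 without Control 2, Control 3, Salt 2 and Salt 3). CYP83B1, the indole-branch cytochrome P450 that oxidises the aldoxime, was at 173, 161 and 129 TPM in the Control libraries and 106, 85.0 and 87.8 TPM in the Salt libraries (-0.74 ± 0.12, adjusted p = 0.000587). The regulator MYB34 fell by 0.52 ± 0.12 (adjusted p = 0.00592), the glucosyltransferase UGT74B1 by 0.49 ± 0.08 and the sulfotransferase SOT18 by 0.54 ± 0.11. In lignin synthesis 11 of 40 genes fell and none rose, but library totals alone gave 4 higher and 4 lower. With TMM the falls numbered 7, 5, 5, 5 and 6 without Control 1, Control 2, Control 3, Salt 2 and Salt 3. Of 20 flavonoid genes 3 fell, and none without Control 1, 2 or 3 or Salt 2 or 3.

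Among single defence genes THI2.2 was at 79.1, 96.0 and 134 TPM in the Control libraries and 24.5, 20.9 and 28.3 TPM in the Salt libraries (-2.08 ± 0.19, adjusted p = 4.19e-06). Control 3 held the most, and the groups did not overlap, which the choice of the largest falls required. PRB1, a basic PR1-like protein, fell by 1.71 ± 0.31 (adjusted p = 0.00132) and CLH1, a chlorophyllase that is induced by jasmonate, by 1.7 ± 0.20 (adjusted p = 6.76e-05). AIG1, induced by bacterial avirulence genes, was at 21.7, 6.32 and 3.07 TPM in the Control libraries and 2.79, 1.51 and 2.52 TPM in the Salt libraries, highest in Control 1, and its fall of 2.2 ± 0.51 was 1.06 without that library (adjusted p = 0.0532). Of 369 biotic stress genes 14 rose and 36 fell, against 4.54% and 6.4% of all genes. Without Control 1, the biotic stress falls numbered 30.

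**Figure D4:**
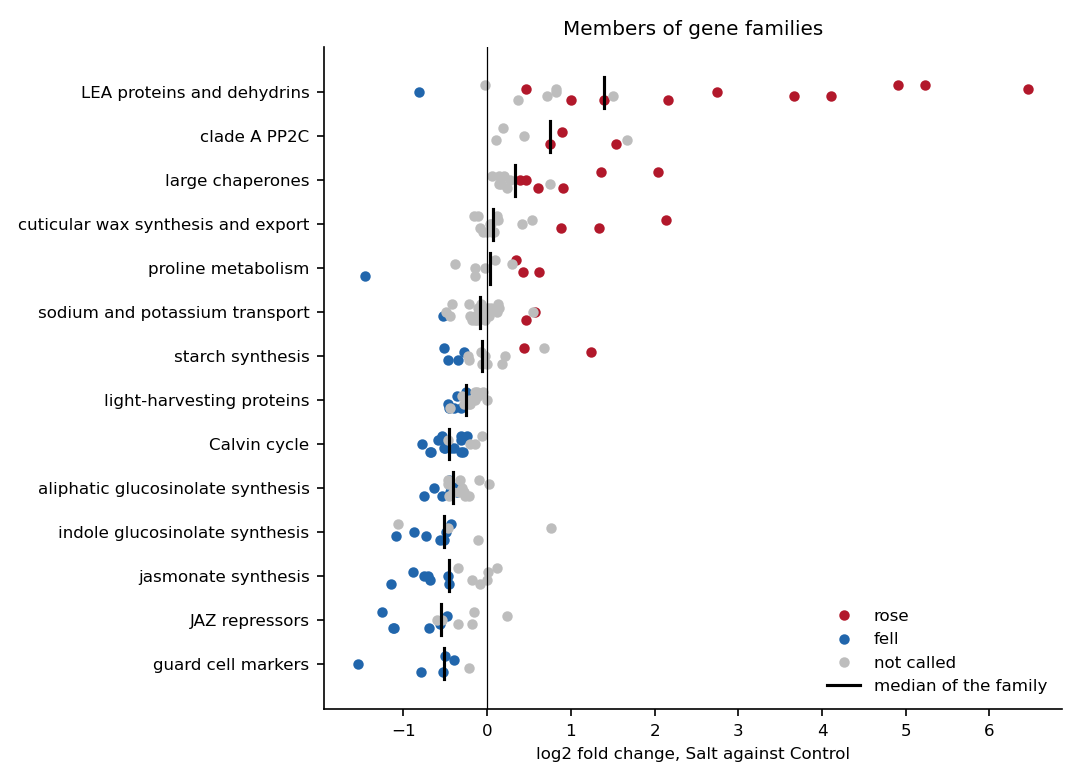
Log2 fold change, Salt against Control, of each tested member of 14 gene families; red points rose, blue points fell, grey points were not called and the black bar is the family's median. LEA and dehydrin members spread to 6.47 with a median of 1.4, while Calvin cycle, jasmonate synthesis and JAZ members have medians of -0.45, -0.46 and -0.56.

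Other hormone genes changed singly. ACS11, an enzyme of ethylene synthesis, was at 0.828, 0.457 and 0.856 TPM in the Control libraries and 4.47, 5.14 and 5.9 TPM in the Salt libraries (2.85 ± 0.62, adjusted p = 0.00683), and the ethylene receptor ERS1 rose by 0.46 ± 0.07 (adjusted p = 0.000298). In cytokinin metabolism 5 of 17 genes fell and none rose. IPT3, which makes cytokinin, was at 6.72, 4.65 and 6.83 TPM in the Control libraries and 2.58, 2.27 and 2.54 TPM in the Salt libraries (-1.30 ± 0.26, adjusted p = 0.0025), CKX4, which breaks it down, fell by 1.14 ± 0.25 (adjusted p = 0.00638) and the response regulator RR12 by 0.44 ± 0.07 (adjusted p = 0.000559). The SPL factors, which promote the adult phase and flowering, had SPL2 at 16.8, 14.6 and 14.2 TPM in the Control libraries and 20.1, 22.4 and 28.2 TPM in the Salt libraries (0.63 ± 0.12, adjusted p = 0.00135) and SPL5 higher by 0.93 ± 0.20 (adjusted p = 0.00399).

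Some chaperone genes rose against Control at 22 °C, 6 of 14 large cytosolic chaperones and co-chaperones (against 4.54% of all genes), and none fell. With salt added to mannitol, other chaperone genes fell: HSC70-1 (-0.64), AT3G09440 (-0.70), HSP81-2 (-0.50), HSP81-3 (-0.52) and Hsp81.4 (-0.35). CLPB3 rose there (0.48). The values that follow are again against Control. HSP70 was at 3.9, 4.01 and 2.93 TPM in the Control libraries and 19.4, 12.5 and 13.1 TPM in the Salt libraries (2.04 ± 0.28, adjusted p = 0.00026), with shared reads possible among HSP70 copies. AT5G48570, a large FKBP immunophilin, rose by 1.35 ± 0.14 and the co-chaperone Hop3 by 0.90 ± 0.18. MBF1C, a coactivator known from heat responses, was at 20.1, 20.6 and 22.7 TPM in the Control libraries and 42.9, 32.5 and 33.1 TPM in the Salt libraries (0.76 ± 0.15, adjusted p = 0.00272). HSFA6A, a heat shock factor known to respond to salt and drought, rose by 4.39 ± 0.73 (adjusted p = 0.00132), or 4.99 without Control 2. HIS1-3, the drought-induced linker histone H1, was at 48.1, 54.7 and 38.7 TPM in the Control libraries and 194, 117 and 106 TPM in the Salt libraries (1.54 ± 0.31, adjusted p = 0.00498), while 11 of 49 histone genes fell, or 7, 4, 5 and 7 without Control 2, Control 3, Salt 1 and Salt 3; histone gene copies may share reads. AT5G12110, an elongation factor 1-beta subunit, was at 10.4, 8.72 and 9.97 TPM in the Control libraries and 21.7, 22.3 and 22.1 TPM in the Salt libraries, a narrow range in each group (1.18 ± 0.10, adjusted p = 8.32e-07).

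Wall genes moved by type. In cell wall modification 7 of 47 genes rose and 1 fell, with 4, 3 and 4 without Control 2, Salt 2 and Salt 3 higher. Of 25 pectin methylesterases 7 fell and none rose, with 4, 4, 3 and 4 without Control 2, Control 3, Salt 2 and Salt 3 lower. TCH4, a touch-induced xyloglucan endotransglucosylase, was at 18.4, 7.31 and 13.2 TPM in the Control libraries and 59.9, 75.4 and 77.6 TPM in the Salt libraries, and the groups did not overlap (2.44 ± 0.53, adjusted p = 0.00779). EXLB1, an expansin-like protein, was at 21.4, 23.9 and 17.2 TPM in the Control libraries and 74.7, 66.3 and 71.0 TPM in the Salt libraries (1.75 ± 0.30, adjusted p = 0.00169). The pectin methylesterases PMEPCRA and PME3 fell by 0.71 ± 0.10 and 0.56 ± 0.13. Over the whole cell wall class 20 genes rose and 25 fell, and library totals alone turned that to 49 and 12.

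Sodium and potassium transport genes were called at about the background share. Of 24 genes 2 rose (8.33%, against 4.54% of all genes) and 1 fell (4.17%, against 6.4%), and the rises numbered 0, 1, 0, 0, 1 and 0 without Control 1, Control 2, Control 3, Salt 1, Salt 2 and Salt 3. SOS1, the plasma membrane sodium exporter, had 0.12 ± 0.07 (adjusted p = 0.249), the vacuolar exchanger NHX1 0.04 ± 0.07 (adjusted p = 0.761) and HKT1, which retrieves sodium from the xylem, -0.44 ± 0.21 (adjusted p = 0.2). None was called. The gene that fell was KAT1, the potassium channel of guard cells, at 8.42, 9.29 and 9.32 TPM in the Control libraries and 6.49, 6.07 and 6.31 TPM in the Salt libraries (-0.52 ± 0.11, adjusted p = 0.0029). Among anion channels SLAH3 was at 4.91, 4.85 and 4.5 TPM in the Control libraries and 7.42, 10.1 and 9.55 TPM in the Salt libraries (0.92 ± 0.20, adjusted p = 0.00649). Of 6 guard cell markers 5 fell, against 6.4% of all genes, and none rose (3, 3 and 3 fell without Control 2, Control 3 and Salt 1). Among those that fell was MYB60, a factor of stomatal opening, at 10.9, 12.8 and 14.1 TPM in the Control libraries and 7.79, 6.93 and 7.33 TPM in the Salt libraries (-0.79 ± 0.12, adjusted p = 0.000298). AT1G22690, a gene with guard cell expression, was at 64.2, 47.2 and 69.9 TPM in the Control libraries and 16.1, 23.3 and 23.1 TPM in the Salt libraries (-1.55 ± 0.33, adjusted p = 0.00538), and the anion channel SLAC1 (listed as OZS1) had -0.22 (adjusted p = 0.401). Set against Mannitol, the guard cell markers ALMT12 and KAT1 were higher in Salt, by 0.68 and 0.32. The call of KAT1 had an adjusted p of up to 0.154 without Salt 1, Salt 3, Mannitol 2 or Mannitol 3. With salt added to mannitol MYB60 and AT1G22690 fell (-0.52 and -1.56). For MYB60 the adjusted p was 0.0738 without Salt_Mannitol 1, and for AT1G22690 up to 0.0671 without Mannitol 2 or Salt_Mannitol 1. Of 5 mesophyll markers 3 fell against Control, or 1 and 1 without Control 3 and Salt 1.

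Salt was also compared with other watered plants. Salt_Heat against Heat is set beside these, although no watering is recorded for Heat. Salt and Mannitol rosettes differed at 4443 genes (22.2%), and Salt_Mannitol and Mannitol at 2675 (13.4%), while Salt_Heat and Heat differed at 206 (1.03%). Salt against Control and Salt against Mannitol share the Salt libraries, so their values are only set side by side. The log2 fold change of RAB18 was 3.66 ± 0.61 against Control, 0.90 ± 0.54 against Mannitol, 1.78 ± 0.55 for salt added to mannitol and 1.25 ± 0.56 for salt added to heat. For LTP4 it was 5.77 ± 0.87 against Control, 0.73 ± 0.64 against Mannitol, 2.00 ± 0.65 for salt added to mannitol and 0.62 ± 0.63 for salt added to heat. The value of RAB18 with salt added to mannitol was called, with an adjusted p of up to 0.186 without Mannitol 1, Mannitol 2, Salt_Mannitol 1 or Salt_Mannitol 3, and was 3.06 without Mannitol 3. Neither gene passed the test between Salt and Mannitol (adjusted p = 0.265 and adjusted p = 0.456). ACS11 did differ: it was 3.62 ± 0.66 higher in Salt than in Mannitol (adjusted p = 0.000652), with 0.466, 0.4 and 0.38 TPM in the Mannitol libraries. AT4G16563, an aspartyl protease, was 3.00 ± 0.43 higher (adjusted p = 7.27e-05) and TCH4 2.88 ± 0.55 higher (adjusted p = 0.00112). On the same scale COR15B was -0.92 ± 0.11, SWEET11 -0.88 ± 0.10 and CYP83B1 -1.06 ± 0.12, each lower in Salt than in Mannitol as well as than in Control.

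Of the 16 genes named for the largest differences between Salt and Mannitol, 8 in each direction, 2 were also called against Control, ACS11 and XTH25, a xyloglucan endotransglucosylase at 5.71 against Mannitol and 2.12 against Control on the log2 scale. The call of XTH25 against Control was lost without Control 2, Control 3, Salt 2 or Salt 3 (adjusted p = 0.132, 0.149, 0.124 and 0.114 in edgeR), and its value was 2.9 without Control 1. Examples of the others follow, on the same scale. GSTF3, a glutathione transferase, was -6.74 ± 0.53 against Mannitol and -0.71 ± 0.99 against Control (adjusted p = 0.712), IGMT3, an indole glucosinolate methyltransferase homologue, was -4.99 ± 0.29 against Mannitol and -0.94 ± 0.39 against Control (adjusted p = 0.13), and the receptor kinase CRK20 was -4.88 ± 0.30 against Mannitol and 0.53 ± 0.48 against Control (adjusted p = 0.539). The levels of GSTF3 were 29.3, 51.6 and 60.3 TPM in Mannitol and 0.347, 0.246 and 0.7 TPM in Salt. On the other side PCC1, a pathogen-induced membrane protein, was 3.70 ± 0.37 against Mannitol and 0.30 ± 0.33 against Control (adjusted p = 0.631). Plastid ribosomal genes, with 34 falls against Control, had 3 lower and 1 higher of 50 in Salt than in Mannitol. Over all genes the shares there were 12.1% lower and 10.1% higher. With salt added to mannitol 7 of the 50 fell, where 8.09% of all genes did. With salt added to heat 0.664% of all genes fell and none of these 50, so the counts are too low to read. In the flavonoid list, 10 of 20 genes were higher and 1 lower in Salt than in Mannitol, against 10.1% and 12.1% of all genes.

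Salt_Mannitol against Mannitol and Salt_Heat against Heat share no library with Salt against Control. Of the 909 genes that rose, 148 also rose when salt was added to mannitol, where 5.27% of all genes did (16.3% of the first list and 14.0% of the second), and 48 fell. Of the 1282 that fell, 197 also fell, where 8.09% of all genes did (15.4% and 12.2%), and 41 rose. With heat, 26 rose in both, where 0.365% of all genes rose with salt added to heat (2.86% and 35.6%) and 38 fell in both, where 0.664% fell (2.96% and 28.6%). The salt difference itself differed with mannitol at 1322 genes (6.6%; 2.84% positive and 3.76% negative) and with heat at 281 (1.4%). THI2.2 fell in all 3 settings, by 0.96 ± 0.20 when salt was added to mannitol and by 1.47 ± 0.18 when it was added to heat. MES18, a methyl esterase, fell by 1.83 ± 0.28 against Control and rose by 1.16 ± 0.27 when salt was added to mannitol, and ACS11 had -1.04 ± 0.95 there. HSP70, already at 693, 767 and 746 TPM in Heat, had 0.09 ± 0.24 with salt added to heat.

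**Figure D5:**
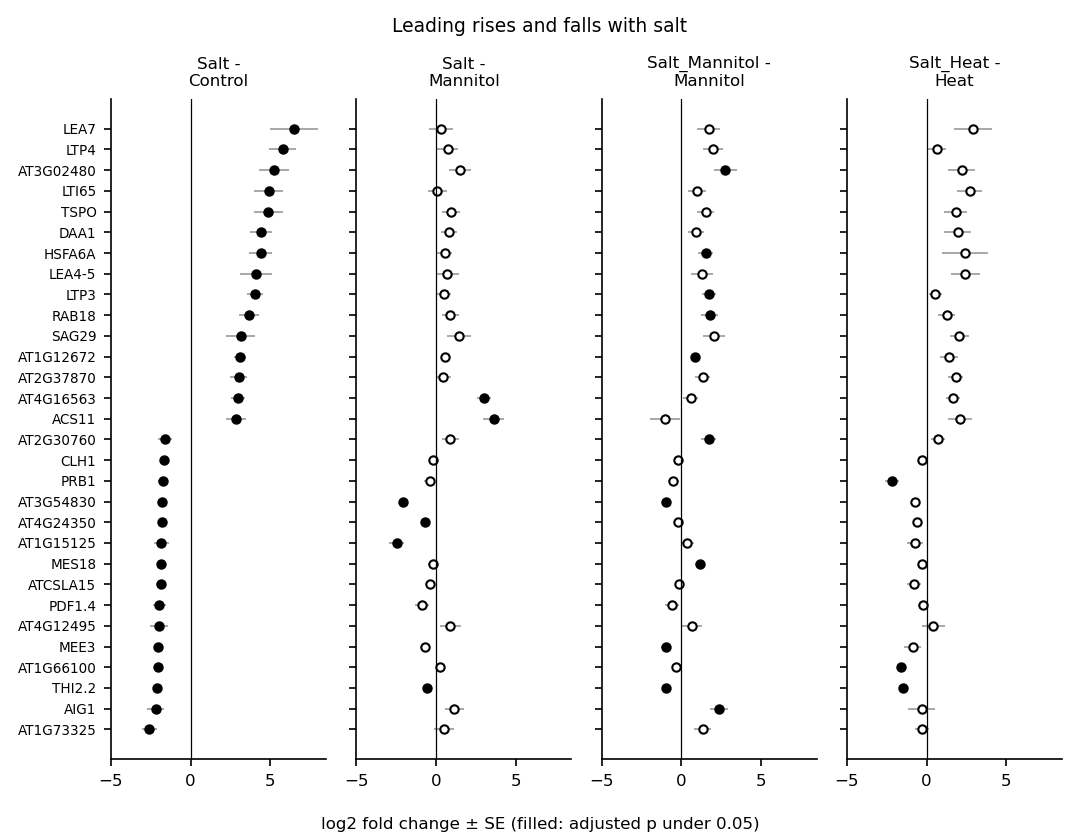
Log2 fold change with its standard error for the 15 largest rises and 15 largest falls, in 4 comparisons; filled points have an adjusted p under 0.05. The genes were chosen on the first panel, among genes whose Salt and Control libraries do not overlap. The first 2 panels share the Salt libraries. LEA7, LTI65 and DAA1 are filled in the first panel alone, while THI2.2 is filled in all 4; its call against Mannitol had an adjusted p of up to 0.177 without Salt 1, Salt 2, Mannitol 1 or Mannitol 2.

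In the authors' deposited table for Salt against Control 1667 genes had a q-value of at most 0.05, 669 higher and 998 lower. Of these 1397 were also called here (83.8% of the authors' list and 63.8% of the calls here), and all 1397 had the same sign in both.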

How the data were processed

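Rosette RNA-seq was compared in 24 libraries of 8 groups with 3 libraries each, from a poly(A) kit and paired 100 bp reads, 12 libraries per lane. Per the file headers and the submitters' processing notes, the deposited estimated counts and TPM per gene came from kallisto 0.45.1 on Araport 11, with CASAVA and sleuth 0.30.0 also named, and no genome build. The deposited estimated counts of each library had been scaled by 1 constant (0.797 to 1.25). It was divided out, after which 94.7% to 95.2% of values lay within 0.01 of a whole read, and counts were rounded. The deposited log fold change matched the natural log of the TPM ratio (slope 1.01 over 5528 genes), and the deposited q-values and p-values of the authors were used only for the comparison of lists. MAPMAN classes came from the deposited table.

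Counts were filtered by expression, scaled by TMM and fitted with edgeR 4.0.16 (R 4.3.3) in 1 quasi-likelihood model of all 24 libraries without covariates, and p-values were adjusted by Benjamini-Hochberg over 20027 genes. Levels are the authors' TPM, a signal value per gene that summed, as deposited, to 0.920 to 1.12 times the nominal total of the unit in each library. Each Control total lay above each Salt total, and no level was rescaled. Alternatives used limma 3.58.1, DESeq2 1.42.0, other scaling, filters and groups, and each library left out; the fit without Control 1 and Salt 1 together was chosen after seeing the data. Gene lists and compared groups were chosen with earlier results of these data known. Genes were named by rank among called genes of each list, class and comparison, or as members of lists of at most 20 genes. Ranked genes had a mean of at least 5 TPM in 1 or more of the groups compared. The largest folds against Control or Mannitol were also limited to genes whose groups did not overlap. PDF1.2 and VSP1 were chosen after their values were seen. Symbols and promoters came from RefSeq TAIR10.1 (27445 of 27655 IDs matched); 99.996% of 26643 nuclear genes overlapped on the same strand. All 24 libraries held 12498560 to 19478550 reads, which limits precision for low genes; replicates were not duplicates (chi-square of paired libraries, divided by its degrees of freedom, 3.21 to 10.9).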

Additional observations from a re-analysis of the deposited data

Results flagged for a closer look

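The salt difference at 22 °C was tested against the salt difference in heated plants, as (Salt_Heat minus Heat) minus (Salt minus Control) on the log2 scale, and 281 genes passed (1.4%). Some of these kept the call with each of the 12 libraries left out in turn. Among them were the nitrogen genes NIA2 at -1.19 (adjusted p = 0.00163), NIA1 at -1.28 (adjusted p = 0.00438) and NIR1 at -0.75 (adjusted p = 0.00762). Others were AT5G12110 at -1.125 (adjusted p = 0.000285), AT5G48570 at -1.18 (adjusted p = 0.00217) and TIFY7 at 1.29 (adjusted p = 0.00247). Genes with an adjusted p under 0.05 among the leading or the most different ones follow. The lipid transfer genes LTP4 and LTP3 had -5.15 ± 1.06 (adjusted p = 0.0306) and -3.51 ± 0.62 (adjusted p = 0.0142), that is, a smaller difference in heat. HSP70 had -1.95 ± 0.37 (adjusted p = 0.0179) and AT5G01740 -1.90 ± 0.39 (adjusted p = 0.0246). Positive values were found for AT3G01940 at 2.61 ± 0.57 (adjusted p = 0.0296), MES18 at 1.55 ± 0.38 (adjusted p = 0.043) and CLH1 at 1.41 ± 0.28 (adjusted p = 0.0229). AT4G24350, a phosphorylase family gene, had 1.23 ± 0.27 (adjusted p = 0.037) and the amino acid transporter gene AT3G54830 1.05 ± 0.25 (adjusted p = 0.0434). Of these leading or most different genes, LTP3 kept the call with each of the 12 libraries left out in turn. The others lost it without at least 1 library: LTP4 without any library other than Control 1, Salt 2, Heat 1, Heat 3 and Salt_Heat 3 (adjusted p up to 0.101), AT3G01940 without Control 3, Salt 1, Salt 2, Salt 3, Heat 3 and Salt_Heat 1 (adjusted p up to 0.103), HSP70 without Control 3, Heat 2 and Salt_Heat 1 (adjusted p up to 0.0619), AT5G01740 without Control 3, Salt 2, Salt 3, Heat 2, Salt_Heat 1 and Salt_Heat 2 (adjusted p up to 0.0789), CLH1 without Control 2, Salt 3, Heat 2 and Heat 3 (adjusted p up to 0.0755), AT3G54830 without any library other than Control 1, Heat 1 and Salt_Heat 3 (adjusted p up to 0.13), AT4G24350 without any library other than Control 3 and Heat 1 (adjusted p up to 0.108) and MES18 without any library other than Control 1, Heat 1 and Salt_Heat 3 (adjusted p up to 0.132).

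The same test against salt added to mannitol passed at 1322 genes (6.6%). Smaller differences in the presence of mannitol were found for LTI65 at -3.93 ± 1.13 (adjusted p = 0.0475), ACS11 at -3.89 ± 1.13 (adjusted p = 0.0475), LTP4 at -3.78 ± 1.06 (adjusted p = 0.0442) and DAA1 at -3.51 ± 0.90 (adjusted p = 0.0293). The same held for AT4G16563 at -2.42 ± 0.66 (adjusted p = 0.0373), LTP3 at -2.30 ± 0.61 (adjusted p = 0.0357) and the thionin-like gene AT1G12672 at -2.22 ± 0.49 (adjusted p = 0.00907). Genes that fell against Control had positive values. AIG1 had 4.56 ± 0.76 (adjusted p = 0.00288), AT1G73325 3.94 ± 0.72 (adjusted p = 0.00433), AT2G30760 3.32 ± 0.67 (adjusted p = 0.00657) and MES18 2.99 ± 0.39 (adjusted p = 0.000273). AT1G15125, a methyltransferase, had 2.2 ± 0.62 (adjusted p = 0.0426), ATCSLA15 1.77 ± 0.37 (adjusted p = 0.00775), the thionin AT1G66100 1.71 ± 0.35 (adjusted p = 0.00819) and AT4G24350 1.62 ± 0.27 (adjusted p = 0.00288). CLH1 had 1.47 ± 0.28 (adjusted p = 0.00589), THI2.2 1.13 ± 0.27 (adjusted p = 0.0173) and AT3G54830 0.82 ± 0.23 (adjusted p = 0.0404). Some positive values went with a rise in Salt_Mannitol against Mannitol itself, as in AIG1 (2.37), AT2G30760 (1.715) and MES18 (1.16). Others went with a smaller fall, as in THI2.2 (-0.96) and AT3G54830 (-0.955). The rise of AT2G30760 had an adjusted p of up to 0.0974 without Mannitol 2, Mannitol 3, Salt_Mannitol 1 or Salt_Mannitol 3. With each of the 12 libraries left out in turn, AIG1, AT1G73325, AT1G12672, CLH1, AT1G66100, AT2G30760, ATCSLA15, AT4G24350 and MES18 kept the call. The others lost it without at least 1 library: LTI65 without any library other than Mannitol 1, Mannitol 2 and Salt_Mannitol 1 (adjusted p up to 0.11), ACS11 without any of the 12 (adjusted p up to 0.117), LTP4 without any library other than Mannitol 1 and Mannitol 2 (adjusted p up to 0.11), AT1G15125 without any library other than Control 3, Salt 3 and Mannitol 2 (adjusted p up to 0.109), DAA1 without Control 2, Control 3, Salt 1, Mannitol 3, Salt_Mannitol 2 and Salt_Mannitol 3 (adjusted p up to 0.0951), AT3G54830 without any library other than Control 1, Salt 1, Mannitol 2 and Salt_Mannitol 1 (adjusted p up to 0.103), AT4G16563 without any library other than Control 1, Salt 1 and Salt_Mannitol 2 (adjusted p up to 0.0969), THI2.2 without Salt 2 and Salt_Mannitol 3 (adjusted p up to 0.0587) and LTP3 without any library other than Control 1, Salt 2, Mannitol 1, Mannitol 2 and Salt_Mannitol 1 (adjusted p up to 0.0817). Some of these values moved by over 1.5 times on the linear scale. AIG1 had 3.43 without Control 1. DAA1 had -4.31 without Control 1 and -2.60 without Mannitol 3. AT1G73325 had 4.73 without Mannitol 2 and 3.3 without Salt_Mannitol 3. LTI65 had -4.79 without Control 2 and -2.48 without Mannitol 3. LTP4 had -2.08 without Mannitol 3. LTP3 had -1.62 without Mannitol 3. Leading genes among these were chosen for their difference against Control, and the part of that choice in the values was not tested.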

How the results depend on the processing

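The 19 settings tried for Salt against Control gave 1042 to 3181 calls, the lowest without Control 3 and the highest with library totals alone, where 76.5% of calls were higher against 41.5% with TMM. Leaving out 1 library gave 1042 to 1956 calls for Salt against Control, 884 to 3525 for salt added to mannitol, 41 to 281 for salt added to heat, 51 to 582 for the difference with heat and 556 to 1438 for the difference with mannitol; the cause was not tested. Without Control 1 and Salt 1 together 1382 genes were called against Control. A 2-fold minimum left 283 genes against Control, 680 against Mannitol, 205 for salt added to mannitol, 42 for salt added to heat, 57 for the difference with heat and 247 for the difference with mannitol. For salt added to heat only its own groups gave 83 and DESeq2 418, and for the difference with heat DESeq2 gave 609. Library totals alone changed the share of higher calls from 61.2% to 30.6% for the difference with heat and from 43.0% to 19.5% for the difference with mannitol. Deviations of same-numbered Salt and Control libraries had correlations of -0.06, -0.10 and -0.00. In the other pairs of groups they ran from -0.22 (Salt_Heat and Heat 3) to 0.28 (Salt_Mannitol and Mannitol 2). With 3 libraries per group these values cannot settle what the numbers stand for. With a replicate block 2112 genes were called against Control, 4341 against Mannitol and 2586 for salt added to mannitol. The same block gave 176 for salt added to heat, 205 for the difference with heat and 1191 for the difference with mannitol. No named call changed sign in any setting, and named genes that were not called were not checked for sign. Of the 245 named calls in Salt against Control 210 kept and 35 lost significance with library totals alone, and 152 kept and 93 lost it without Control 3. Calls of genes with few reads in Control, such as LEA7 with 7, are limited by depth.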
